A study of Mus musculus with 9 samples.

Results

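Glucocorticoid and stress responsive genes were examined in regulatory T cells (Tregs), CD4 T cells marked by Foxp3 that hold immune responses in check. The 6 genes were chosen by name: Nr3c1, Tsc22d3, Fkbp5, Sgk1, Txnip and Ddit4. They are 6 of the 23393 rows that carry a gene symbol, and all 6 were among the 12219 genes with enough counts to be tested. RNA of mouse spleen Tregs had been sequenced in 9 samples, 3 each of Tregs labelled ST2KO, and of wild-type Tregs divided by their ST2 into ST2-high and ST2-low. The ST2KO label names no such fraction, and how those cells were gated is not clear. In the ST2KO comparisons, genotype and the division of the wild-type cells by ST2 therefore cannot be told apart. ST2, encoded by Il1rl1, is the receptor for interleukin-33, and the series concerns ST2-positive Tregs in renal inflammation and fibrosis after ischemic injury. The labels give genotype, tissue and cell type; the sources used here do not give the allele behind ST2KO, the age of the mice or any treatment. Nothing says whether replicates came from separate animals, so p-values reflect only how far these samples differ from one another, and that spread may be technical.

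Glucocorticoids such as corticosterone enter cells and bind the glucocorticoid receptor, the product of Nr3c1, which waits in the cytoplasm in a complex with heat shock protein chaperones. The bound receptor moves to the nucleus, binds glucocorticoid response elements in DNA and raises or lowers transcription of nearby genes. Fkbp5, Tsc22d3 and Sgk1 are textbook targets of the receptor, and Txnip and Ddit4 are raised by glucocorticoids as well as by nutrient or oxygen stress. Lymphocytes respond strongly to these hormones, and several of the targets restrain growth, nutrient uptake or inflammatory transcription.

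The libraries held between 11638480 and 43323449 counts, and the 6 genes together took between 20415 and 75931 counts of a library. Il1rl1 averaged 67.6 ± 14 CPM (counts scaled to library size, with TMM factors) in ST2KO, 495 ± 66 CPM in ST2-high and 2.62 ± 0.84 CPM in ST2-low (SD, n = 3 each). A count per gene does not tell deleted from remaining exons, so the level in ST2KO does not check that label. Foxp3 averaged 430.2 ± 17.6 CPM in ST2KO, 568 ± 47.8 CPM in ST2-high and 462 ± 16.3 CPM in ST2-low. ST2-high replicate 3 stood apart from its group, with a chi-square per gene of 17.2 and 20.4 against the other ST2-high samples and at most 8.43 between any other samples of 1 group. This measure was taken on raw counts, so it grows with depth, and it included the ribosomal RNA precursor row Rn45s. That row took 16.7% of counts in ST2-high replicate 3, against 13% and 12.1% in replicates 1 and 2. The part of Rn45s in these values was not tested. The 17 counted myeloid and dendritic markers, none at 0 in any group, summed to between 48.9 and 62.4 CPM in ST2KO, 151 and 154 CPM in ST2-high, and 164 and 210.2 CPM in ST2-low. Of the 15 tested, 13 were lower in ST2KO than in ST2-low, 14 were lower in ST2KO than in ST2-high, and 5 were lower and 1 higher in ST2-high than ST2-low. Over all tested genes 29.3%, 32.6% and 10.8% were lower in these comparisons, in that order, and 15.3% were higher in the last. Myeloid cells also carry the 6 transcripts, and the part of these cells in the results was not tested. B cell markers (13 counted, none at 0) summed to between 123 and 159.6 CPM in ST2KO, 152 and 189 CPM in ST2-high, and 133 and 201 CPM in ST2-low. Neutrophil markers (8 counted) summed to between 3.85 and 4.91 CPM in ST2KO, 12.2 and 19.45 CPM in ST2-high, and 10.45 and 37.2 CPM in ST2-low. The 9 counted T cell and Treg markers, none at 0, summed to between 4129 and 4217 CPM in ST2KO, 5745 and 6003 CPM in ST2-high, and 5049 and 5153 CPM in ST2-low. They did not move one way, with 4 higher and 2 lower in ST2KO than in ST2-low. Against ST2-high, 3 were higher and 4 lower in ST2KO. In that order 66.7% and 77.8% of these markers passed the test, against 62.3% and 64.5% of all tested genes. Ctla4 weighed heavily in the sum, at 786 ± 40.9 CPM in ST2KO, 2123 ± 71.4 CPM in ST2-high and 1996 ± 46.9 CPM in ST2-low. In bulk RNA, fewer cells with a transcript and less transcript per cell cannot be told apart.

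Windows of 250 bases before the RefSeq gene starts (GRCm38.p6) were searched for sites of the factors that the 6 genes are known to answer to. Windows were used for 5 of the 6 genes, 12 in all, 6 of them of Sgk1 and 3 of Tsc22d3. Searched on both strands were the glucocorticoid response element (GNACA and TGTNC with 3 bases between them), its full palindrome (AGAACA and TGTTCT with 3 bases between them), which contains the shorter form, the carbohydrate response element (CACGNG repeated after 5 bases) and the forkhead site TGTTTAC. Shown are the Sgk1 window with the full glucocorticoid palindrome and the Txnip window with the carbohydrate element, since these genes had the largest fall (Sgk1) and the largest rise (Txnip) of the 6 in ST2KO against ST2-high. Capitals mark the palindrome in Sgk1 and the carbohydrate element in Txnip.
Sgk1, chr10:21993640-21993889, plus strand: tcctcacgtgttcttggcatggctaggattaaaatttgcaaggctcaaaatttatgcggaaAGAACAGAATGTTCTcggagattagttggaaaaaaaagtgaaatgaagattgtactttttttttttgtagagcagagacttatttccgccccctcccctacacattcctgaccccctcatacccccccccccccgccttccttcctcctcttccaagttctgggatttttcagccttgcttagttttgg
Txnip, chr3:96557707-96557956, plus strand: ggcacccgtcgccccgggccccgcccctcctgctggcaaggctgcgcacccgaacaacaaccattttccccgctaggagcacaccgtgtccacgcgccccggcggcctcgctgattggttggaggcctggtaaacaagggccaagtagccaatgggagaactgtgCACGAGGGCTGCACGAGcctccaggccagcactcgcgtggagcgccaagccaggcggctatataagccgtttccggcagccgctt
The Sgk1 palindrome lies between bases -189 and -175 of the fifth start, counting from the start, and only 3 of all 32851 windows (0.00913%) held it. The Txnip carbohydrate element lies between bases -85 and -69, and 15 windows (0.0457%) held one. The Txnip window also held the shorter glucocorticoid form between bases -172 and -160, found in 127 windows (0.387%), and a forkhead site on the minus strand between bases -121 and -115, found in 1040 windows (3.17%). None of these 4 motifs was found in the other 5 Sgk1 windows or in the windows of Tsc22d3, Fkbp5 and Ddit4. A match is a description of letters, and the counts do not show which start was used. Bases outside these windows were not searched, so a window without a match does not show that a gene lacks such a site.

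All 6 genes differed between ST2KO and ST2-low, with Fkbp5, Txnip and Ddit4 higher and Nr3c1, Tsc22d3 and Sgk1 lower in ST2KO. In that comparison 62.3% of all tested genes were called, 33% higher and 29.3% lower. Between ST2KO and ST2-high 5 of the 6 were called, where 64.5% of all tested genes were, 31.9% higher and 32.6% lower, with Fkbp5 and Txnip higher and Nr3c1, Tsc22d3 and Sgk1 lower. Between ST2-high and ST2-low all 6 were called, where 26.1% of all tested genes were, with Nr3c1, Fkbp5, Sgk1 and Ddit4 higher and Tsc22d3 and Txnip lower. A call means a Benjamini-Hochberg adjusted p under 0.05 over all tested genes, from the quasi-likelihood test of edgeR. The comparisons share samples, so they are not independent of each other. The samples of the groups did not overlap for 67.2% of all tested genes in ST2KO against ST2-low, 66.8% in ST2KO against ST2-high and 38.1% in ST2-high against ST2-low. The 6 genes summed to nearly the same level in every group, between 1588 and 1671 CPM in ST2KO, 1611 and 1695 CPM in ST2-high, and 1637 and 1664 CPM in ST2-low. Txnip (group means between 450 and 801 CPM) and Nr3c1 (between 355 and 636 CPM) weighed most in that sum and ran in opposite directions. CPM is not per length, so the near-equal sums do not show a shared total of these transcripts. Across all tested genes the median log2 fold change was 0.05 for ST2KO against ST2-low, 0.02 for ST2KO against ST2-high and -0.00236 for ST2-high against ST2-low.

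**Figure D1:**
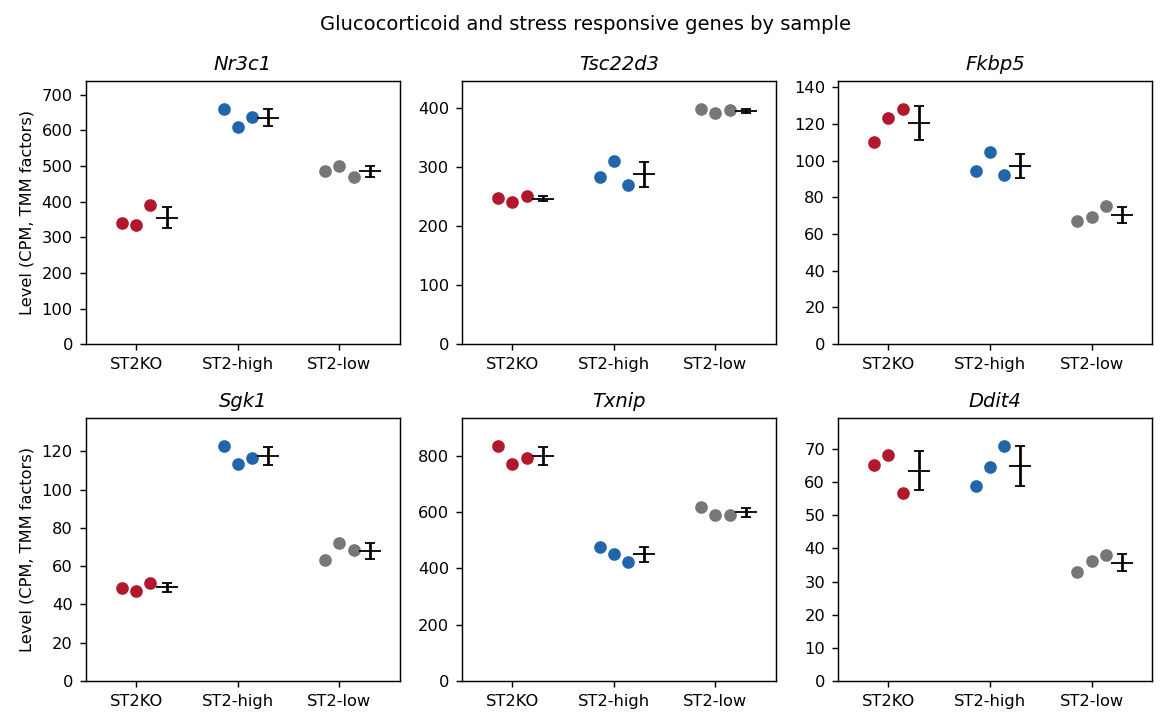
Level of each of the 6 genes in CPM with TMM factors (linear axes from 0) in ST2KO, ST2-high and ST2-low Tregs. Points are samples, and the bar and whiskers beside them are the mean and SD of 3 samples. Nr3c1 and Sgk1 are highest in ST2-high, Txnip and Fkbp5 in ST2KO, and Tsc22d3 in ST2-low, while the Ddit4 points of ST2KO and ST2-high overlap.

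Nr3c1, the glucocorticoid receptor gene, was lowest in ST2KO and highest in ST2-high. It stood at 341, 336 and 389.7 CPM in ST2KO replicates 1, 2 and 3, at 659, 610.4 and 638 CPM in ST2-high, and at 485, 501 and 469 CPM in ST2-low. No group overlapped another, and ST2KO replicate 3 was the highest of its group. The log2 fold change was -0.45 ± 0.06 (SE) for ST2KO against ST2-low (edgeR adjusted p = 4.29e-08) and -0.84 ± 0.06 for ST2KO against ST2-high (edgeR adjusted p = 5.55e-14). Nr3c1 was 1.31-fold higher in ST2-high than ST2-low (edgeR adjusted p = 2.12e-06). In size, the difference of ST2KO from ST2-low exceeded that of 56.3% of tested genes, and the difference of ST2KO from ST2-high exceeded that of 78.4%.

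Genes that fold, chaperone or assist the receptor did not move one way. Of the 22 tested, 7 were higher and 9 lower in ST2KO than in ST2-low, 6 higher and 7 lower in ST2KO than in ST2-high, and 1 higher and 6 lower in ST2-high than in ST2-low. In that order 72.7%, 59.1% and 31.8% of the list were called, where 62.3%, 64.5% and 26.1% of all tested genes were. The median log2 fold change was 0.0011 for ST2KO against ST2-low, 0.0708 for ST2KO against ST2-high and -0.0638 for ST2-high against ST2-low. Against ST2-high, 10 were higher in ST2KO without ST2KO replicate 2, and 4 were lower without ST2KO replicate 3. Ncoa3, a steroid receptor coactivator gene, averaged 672 ± 22.7 CPM in ST2KO, 428 ± 16.2 CPM in ST2-high and 509 ± 12.9 CPM in ST2-low, and all 3 differences passed the test. Nrip1, whose product represses nuclear receptors, ran the other way in ST2KO at 222 ± 22.3 CPM, against 331 ± 19.7 CPM in ST2-high and 406 ± 4.3 CPM in ST2-low. The nuclear import gene Kpna2 fell 2.21-fold in ST2KO against ST2-high and 1.64-fold against ST2-low. The coactivator gene Crebbp fell 1.29-fold in ST2KO against ST2-low, and Ep300 rose 1.29-fold in ST2KO against ST2-high. The chaperone genes Hsp90aa1 and Hsp90ab1 passed in none of the comparisons (edgeR adjusted p between 0.237 and 0.804). Stip1, which links HSP70 and HSP90 chaperones and was chosen for mention after its values were seen, stood at 128.5, 90.5 and 151.5 CPM in ST2KO, at 64.45, 63.5 and 63.8 CPM in ST2-high, and at 66.8, 61.2 and 63.2 CPM in ST2-low. The ST2KO samples thus lay above both wild-type groups and were spread far more widely among themselves.

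Hsd11b1 and H6pd, whose products together regenerate active hormone inside cells, were higher in ST2KO. Hsd11b1, the enzyme that reactivates the glucocorticoid, stood at 33.6, 30.9 and 28.1 CPM in ST2KO, at 23.7, 26.15 and 23.0 CPM in ST2-high, and at 14.6, 14.2 and 14.5 CPM in ST2-low. The groups formed a ladder without overlap, with Hsd11b1 2.15-fold higher in ST2KO than in ST2-low (edgeR adjusted p = 1.05e-11), 1.28-fold higher in ST2KO than in ST2-high (edgeR adjusted p = 0.000693) and 1.68-fold higher in ST2-high than ST2-low (edgeR adjusted p = 2.84e-07). H6pd, which supplies the cofactor of that enzyme, rose with it in ST2KO, at 54.4 ± 4.3 CPM in ST2KO, 32.2 ± 1.27 CPM in ST2-high and 31.65 ± 2.39 CPM in ST2-low. The mineralocorticoid receptor gene Nr3c2, whose product also binds corticosterone, was low but 2.46-fold higher in ST2KO than in ST2-low, at 9.70, 13.15 and 13.6 CPM in ST2KO, against 4.59, 5.02 and 4.925 CPM in ST2-low. The drug and steroid exporter genes Abcb1a and Abcb1b were lower in ST2KO than in ST2-high, by 1.295-fold and 1.44-fold. Of the other genes of this list, Hsd11b2 and Cyp11a1 stood at 1.189 CPM or less in every sample and the progesterone receptor gene Pgr had 0 counts in all 9 libraries. In all, 3 of 8 tested genes were higher and 3 lower in ST2KO than in ST2-low, with a median log2 fold change of -0.18. Against ST2-high, 3 were higher and 4 lower in ST2KO (median -0.34), Hsd11b2 and Cyp11a1 being among the 4. That call of Cyp11a1 was lost without ST2KO replicate 2 or 3 or without ST2-high replicate 1 or 3 (edgeR adjusted p up to 0.143). In ST2-high against ST2-low, 2 were higher and 0 lower, and 1 was higher without ST2-high replicate 1 or ST2-low replicate 1 or 2. In the fit on all samples 75%, 87.5% and 25% of the list were called in the 3 comparisons, in that order. Over all tested genes the shares were 62.3%, 64.5% and 26.1%.

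Fkbp5 encodes FKBP51, a co-chaperone that lowers the hormone affinity of the receptor and is itself raised by the receptor. It ran in the order ST2KO, ST2-high, ST2-low. The values were 110.2, 123 and 128 CPM in ST2KO, 94.3, 105 and 92.3 CPM in ST2-high, and 67.1, 69.1 and 75.4 CPM in ST2-low. No group overlapped another, though the lowest ST2KO sample and the highest ST2-high sample lay close together. Fkbp5 was 1.70-fold higher in ST2KO than in ST2-low (log2 fold change 0.76 ± 0.06, edgeR adjusted p = 1.54e-11). It was 1.235-fold higher in ST2KO than in ST2-high (0.305 ± 0.063, edgeR adjusted p = 0.000111) and 1.375-fold higher in ST2-high than ST2-low (0.46 ± 0.06, edgeR adjusted p = 1.87e-06). Among 10 tested FK506-binding proteins, Fkbp5 included, 5 were higher and 0 lower in ST2KO than in ST2-low, and 4 higher and 0 lower in ST2KO than in ST2-high, with median log2 fold changes of 0.243 and 0.237. In that order 50% and 40% of the list were called, where 62.3% and 64.5% of all tested genes were. Called higher were 33% and 31.9% of all tested genes. Fkbp3, Fkbp1a and Fkbp15 rose 1.43-fold, 1.17-fold and 1.198-fold in ST2KO against ST2-low. Fkbp4, whose product FKBP52 takes the place of FKBP51 in the activated receptor complex, stood at 90.6, 71.0 and 109 CPM in ST2KO and between 63.1 and 69.1 CPM in ST2-high. Its call against ST2-low was lost in 7 of 19 alternatives, and its call against ST2-high was lost without ST2KO replicate 1 or without any of the ST2-high replicates (edgeR adjusted p up to 0.09). Leaving out ST2-high replicate 3 ended the call of Fkbp3 there (edgeR adjusted p = 0.135), which left 2 of the 10 higher.

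Tsc22d3 encodes GILZ, a leucine zipper protein through which glucocorticoids restrain NF-kB and AP-1 in T cells. It was highest in ST2-low. The values were 248, 242 and 251 CPM in ST2KO, 284, 311 and 269.5 CPM in ST2-high, and 398, 392 and 396 CPM in ST2-low. No group overlapped another, and the ST2-low samples differed by a coefficient of variation of 0.809%. Tsc22d3 was 1.60-fold lower in ST2KO than in ST2-low (log2 fold change -0.68 ± 0.05, edgeR adjusted p = 1.93e-12) and 1.37-fold lower in ST2-high than in ST2-low (-0.46 ± 0.05, edgeR adjusted p = 5.01e-08). The further difference of ST2KO from ST2-high was 1.17-fold (-0.23 ± 0.05, edgeR adjusted p = 0.000474), larger in size than that of 30% of tested genes. It shrank to -0.15 with upper-quartile scaling and still passed. Of the paralogues, Tsc22d2 fell 1.58-fold in ST2KO against ST2-low and 1.44-fold against ST2-high. Tsc22d1 fell 1.34-fold in ST2KO and 1.33-fold in ST2-high against ST2-low. Tsc22d4 rose 1.455-fold in ST2KO against ST2-low and 1.32-fold against ST2-high. Thus the direction of Tsc22d3 against ST2-low was shared by 2 of its 3 paralogues in ST2KO.

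Sgk1 encodes a kinase that relays growth factor, salt and glucocorticoid signals through mTORC2 and inactivates FOXO transcription factors. In T cells it is known for favouring Th17 over Treg differentiation. Sgk1 stood at 48.65, 46.8 and 51.1 CPM in ST2KO, at 123, 113 and 116 CPM in ST2-high, and at 63.3, 72.1 and 68.3 CPM in ST2-low. The 3 groups lay far apart relative to their spread. Sgk1 was 2.41-fold lower in ST2KO than in ST2-high (log2 fold change -1.27 ± 0.06, edgeR adjusted p = 2.42e-17), a difference larger than that of 90% of tested genes. It was 1.39-fold lower in ST2KO than in ST2-low (-0.48 ± 0.06, edgeR adjusted p = 1.14e-07) and 1.73-fold higher in ST2-high than ST2-low (0.79 ± 0.06, edgeR adjusted p = 8.7e-12). Of its 6 windows, 1 holds the full glucocorticoid palindrome shown above.

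Ndrg1, whose product is a substrate of SGK1, followed the same order. It averaged 19.3 ± 0.98 CPM in ST2KO, 55.6 ± 3.86 CPM in ST2-high and 31.7 ± 0.23 CPM in ST2-low, which was 2.90-fold lower in ST2KO than in ST2-high. The related kinase gene Sgk3 ran in the opposite order, at 24.8, 23.85 and 19.6 CPM in ST2KO, 8.16, 8.93 and 9.36 CPM in ST2-high, and 13.8, 14.2 and 12.3 CPM in ST2-low. Sgk3 was thus 2.63-fold higher in ST2KO than in ST2-high (edgeR adjusted p = 5.71e-12). Foxo1, the FOXO factor gene, fell 1.44-fold in ST2KO against ST2-low. Wnk1, another kinase gene of salt balance, fell 1.35-fold against ST2-low and 1.45-fold against ST2-high. Akt2 fell 1.36-fold in ST2KO against ST2-low, and Akt1 rose 1.29-fold in ST2-high against ST2-low. Over the 20 tested genes of this list, Sgk1 included, 5 were higher and 7 lower in ST2KO than in ST2-low, 8 higher and 7 lower in ST2KO than in ST2-high, and 3 higher and 6 lower in ST2-high than in ST2-low. In that order 60%, 75% and 45% of the list were called, where 62.3%, 64.5% and 26.1% of all tested genes were. Without ST2KO replicate 2, the number higher in ST2KO than ST2-low was 3.

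Txnip encodes an alpha-arrestin that binds thioredoxin and removes glucose transporters from the cell surface, and it is raised by glucose through MLX-containing factors at carbohydrate response elements. Its order was the reverse of that of Sgk1. Txnip stood at 836, 772.5 and 794 CPM in ST2KO, at 475.5, 451 and 424 CPM in ST2-high, and at 617, 591 and 589.8 CPM in ST2-low. No group overlapped another. It was 1.78-fold higher in ST2KO than in ST2-high (log2 fold change 0.83 ± 0.05, edgeR adjusted p = 1.8e-14) and 1.34-fold higher in ST2KO than in ST2-low (0.42 ± 0.05, edgeR adjusted p = 4.88e-08). It was 1.33-fold lower in ST2-high than in ST2-low (-0.41 ± 0.05, edgeR adjusted p = 3.53e-07). The ratio of Txnip to Sgk1 CPM, which is taken within a library and so does not depend on scaling, was 17.2, 16.5 and 15.6 in ST2KO, 3.87, 3.98 and 3.64 in ST2-high, and 9.75, 8.2 and 8.63 in ST2-low. The ratio is not per length, so its size says nothing of molecule numbers. Every ST2KO sample lay above every wild-type sample. This follows from the levels above, as Txnip was highest and Sgk1 lowest in ST2KO without overlap, and adds no separate result.

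Mlx, the partner gene of those glucose-sensing factors, rose with Txnip in ST2KO, at 30.7, 28.1 and 31.3 CPM in ST2KO, 16.7, 17.2 and 16.4 CPM in ST2-high, and 15.3, 13.6 and 14.3 CPM in ST2-low. This was 2.085-fold above ST2-low (edgeR adjusted p = 2.53e-11). Mlxip, the gene of a partner of MLX, went the other way. It was lower in ST2KO than in ST2-low, at 250.5 ± 8.64 against 287.6 ± 10.4 CPM, and kept that call in all 19 alternatives. The alpha-arrestin gene Arrdc4, known as another glucose-responsive target and named here after its values were seen, stood at 17.1, 17.8 and 22.1 CPM in ST2KO, 11.3, 8.12 and 8.175 CPM in ST2-high, and 6.92, 7.28 and 7.035 CPM in ST2-low. It was 2.65-fold higher in ST2KO than in ST2-low. The Arrdc4 window held none of the 4 motifs. Arrdc3, of the same family, went the other way and was 2.07-fold lower in ST2KO than in ST2-low. Slc2a1, the glucose transporter gene GLUT1 whose protein TXNIP removes from the surface, was also lower in ST2KO, by 1.625-fold against ST2-low and 1.46-fold against ST2-high. Nlrp3, an inflammasome gene of myeloid cells whose protein TXNIP can bind, was at 0.521, 0.351 and 0.9 CPM in ST2KO, against 4.86, 6.12 and 5.025 CPM in ST2-low. The myeloid markers given above moved the same way. Over the 15 tested genes of this list, Txnip included, 7 were higher and 5 lower in ST2KO than in ST2-low, 4 higher and 6 lower in ST2KO than in ST2-high, and 5 higher and 1 lower in ST2-high than in ST2-low. Those lower in ST2-high numbered 3 without ST2-high replicate 3 and 2 without ST2KO replicate 3. In the fit on all samples 80%, 66.7% and 40% of the list were called in the 3 comparisons, in that order. Over all tested genes the shares were 62.3%, 64.5% and 26.1%.

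**Figure D2:**
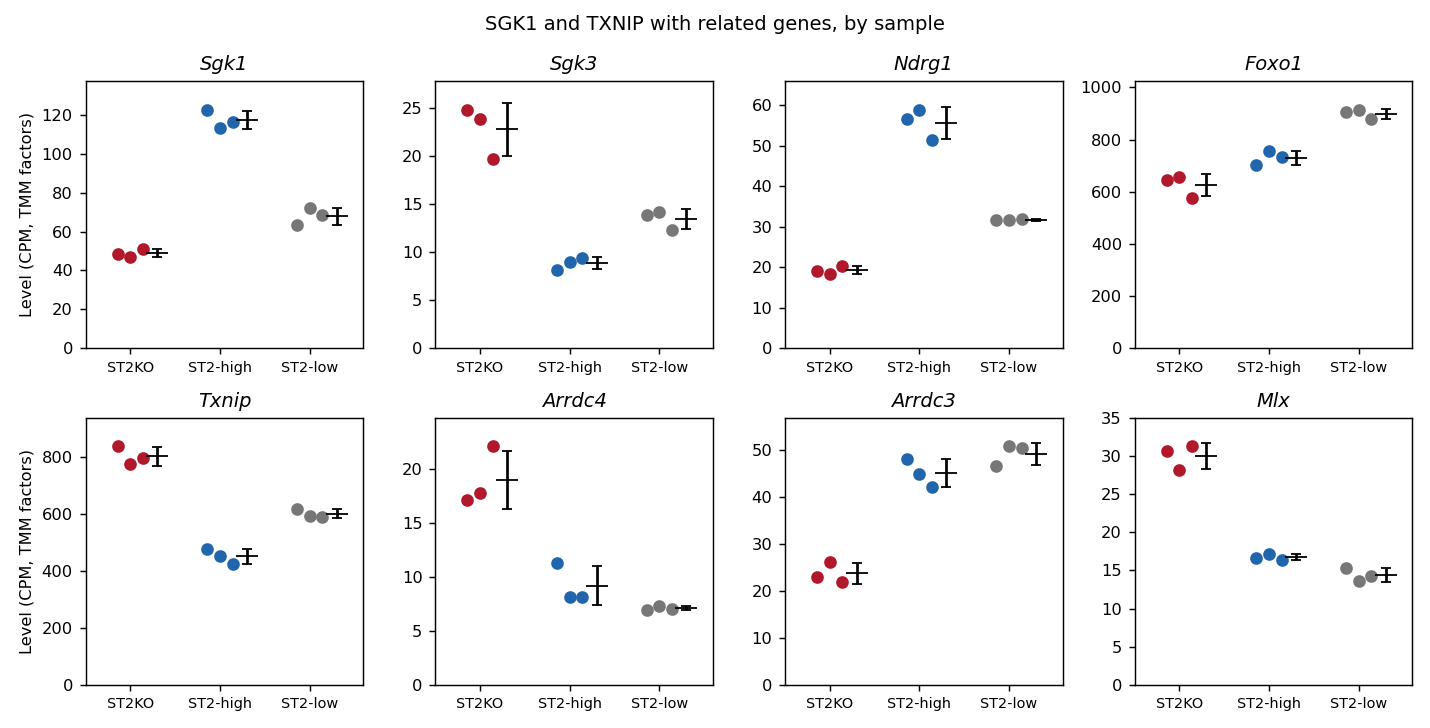
Level in CPM with TMM factors (linear axes from 0) of Sgk1 and genes linked to it (upper row) and of Txnip and genes linked to it (lower row) in ST2KO, ST2-high and ST2-low Tregs. Points are samples, with the mean and SD of 3 beside them. Ndrg1 follows Sgk1 and Sgk3 runs against it, while Mlx and Arrdc4 are high with Txnip in ST2KO and Arrdc3 is low there.

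Ddit4 encodes REDD1, which turns down mTORC1 through the TSC complex when oxygen or energy is short or glucocorticoids are high. It was higher in both ST2KO and ST2-high than in ST2-low. Ddit4 stood at 65.2, 68.2 and 56.9 CPM in ST2KO, at 58.9, 64.5 and 70.9 CPM in ST2-high, and at 32.9, 36.3 and 37.9 CPM in ST2-low. The ST2KO and ST2-high samples overlapped each other and lay above all ST2-low samples. The fold over ST2-low was 1.78 in ST2KO (log2 fold change 0.83 ± 0.08, edgeR adjusted p = 1.37e-10) and 1.81 in ST2-high (0.85 ± 0.08, edgeR adjusted p = 5.52e-10). ST2KO against ST2-high did not pass (-0.019 ± 0.074, edgeR adjusted p = 0.839), and the 95% interval of that log2 difference ran between -0.17 and 0.133, or between 0.889-fold and 1.1-fold.

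Genes of mTORC1 control around Ddit4 moved in both directions. Of 19 tested, Ddit4 included, 3 were higher and 8 lower in ST2KO than in ST2-low, 4 higher and 5 lower in ST2KO than in ST2-high, and 4 higher and 3 lower in ST2-high than in ST2-low. The last counts fell to 2 higher and 1 lower without ST2-high replicate 1 or ST2-low replicate 2, and to 2 higher without ST2-low replicate 3. In the fit on all samples 57.9%, 47.4% and 36.8% of the list were called in the 3 comparisons, in that order. Over all tested genes the shares were 62.3%, 64.5% and 26.1%. Rheb, the GTPase gene that activates mTORC1, stood at 25.0, 25.4 and 26.6 CPM in ST2KO, 62.0, 62.6 and 59.1 CPM in ST2-high, and 55.5, 53.6 and 53.3 CPM in ST2-low. It fell 2.40-fold in ST2KO against ST2-high (edgeR adjusted p = 1.96e-16) and 2.12-fold against ST2-low (edgeR adjusted p = 1.12e-14). The sestrin genes, whose products also restrain mTORC1, split, with Sesn1 1.39-fold higher and Sesn2 2.24-fold lower in ST2KO than in ST2-low. Hif1a, encoding the oxygen-regulated factor that raises Ddit4 in hypoxia, was 1.52-fold lower in ST2KO than in ST2-high. Prkaa1, a subunit gene of the energy sensor AMPK, was 1.38-fold higher there.

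**Figure D3:**
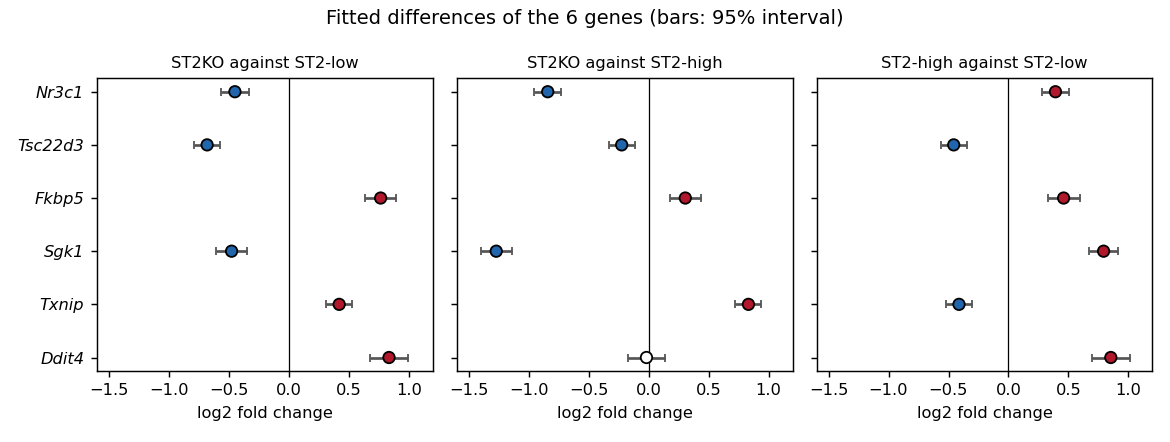
Log2 fold change (horizontal axis) of the 6 genes in each comparison, from the edgeR fit on all 9 samples, with 95% intervals as bars. Red points were called higher and blue points lower in the group named before "against", and the open point was not called. Sgk1 in ST2KO against ST2-high, at -1.27, is the widest difference, and Ddit4 in the same comparison spans 0.

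Other genes known to be raised by glucocorticoids in lymphocytes were mostly lower in ST2KO. Of 23 listed genes all had a row, and 22 passed the filter on low counts, Cebpd being the one left out. Between ST2KO and ST2-low, 16 were lower and 4 higher, with a median log2 fold change of -0.589. Over all tested genes 29.3% were called lower and 33% higher there. Among the 16, the call of Dusp1 was lost in 4 alternatives, and those of Zfp36 and Zbtb16 in 2 each. Between ST2KO and ST2-high, 18 were lower and 3 higher, with a median of -0.734. Over all tested genes 32.6% were called lower and 31.9% higher there. Among the 18, the calls of Klf9 and Zbtb16 were lost in 3 and 2 alternatives. Between ST2-high and ST2-low, 9 were higher and 5 lower, with a median of 0.111, where 15.3% and 10.8% of all tested genes were called higher and lower. Many of these genes answer to other stimuli as well, so a list of this kind does not single out the receptor.

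Per1, a clock gene with a classical glucocorticoid response, stood at 305, 293 and 291 CPM in ST2KO, 791, 846 and 890.4 CPM in ST2-high, and 836, 875 and 901.5 CPM in ST2-low. It was 2.94-fold lower in ST2KO than in ST2-low (edgeR adjusted p = 8.32e-21), while ST2-high against ST2-low did not pass (edgeR adjusted p = 0.561). Errfi1, an inhibitor of epidermal growth factor receptors, was at 17.5, 17.9 and 20.95 CPM in ST2KO, 67.2, 70.3 and 60.8 CPM in ST2-high, and 72.7, 73.2 and 75.2 CPM in ST2-low. All ST2KO samples thus lay far below both wild-type groups. Rgs2, a brake on G protein signalling, was 3.34-fold lower in ST2KO than in ST2-high. Nfkbia, the gene of the NF-kB inhibitor IkB-alpha, was 2.12-fold lower there and 1.70-fold higher in ST2-high than ST2-low. Bcl2l11, the gene of the death mediator BIM, averaged 82.6 ± 2.78 CPM in ST2KO, 145 ± 1.46 CPM in ST2-high and 208 ± 9.89 CPM in ST2-low. Higher in ST2KO than in ST2-low were Il7r, Zfp36l2, Pik3ip1 and Socs1, and the call of Socs1 was lost in 11 of 19 alternatives. Il7r, the interleukin-7 receptor gene, was at 389 ± 18 CPM in ST2KO, 379 ± 17.2 CPM in ST2-high and 277 ± 7.76 CPM in ST2-low. Pik3ip1, a brake on PI3-kinase, was at 71.0 ± 4.54 CPM in ST2KO, 40.55 ± 1.59 CPM in ST2-high and 59.4 ± 2.78 CPM in ST2-low.

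**Figure D4:**
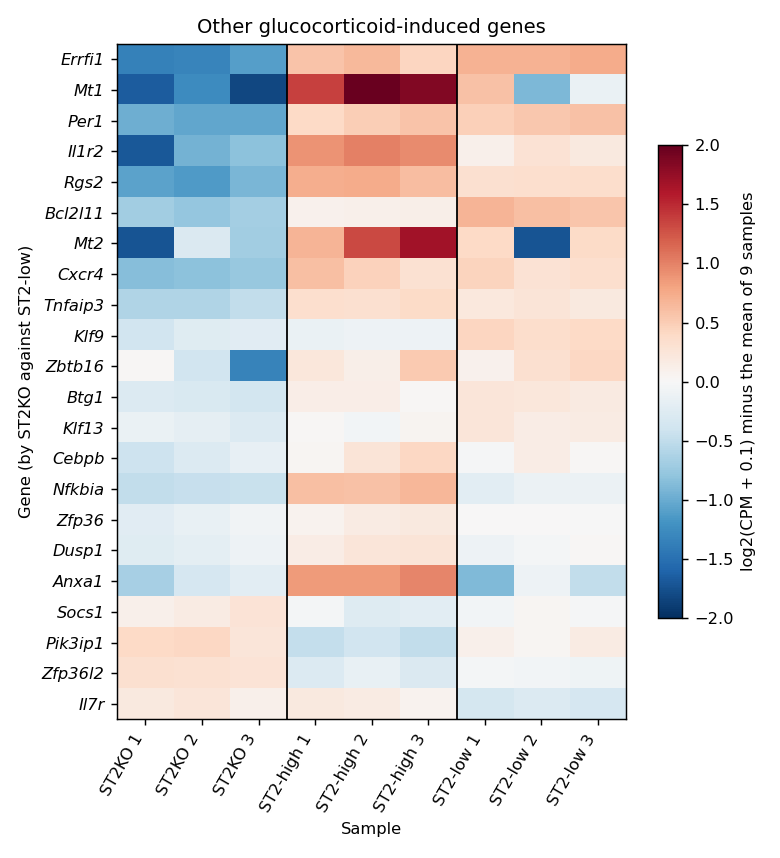
Each row is 1 of 22 other glucocorticoid-induced genes and each column 1 of 9 samples; colour is log2(CPM + 0.1) minus the mean of the 9 samples, red above and blue below it. Rows run from the lowest to the highest log2 fold change of ST2KO against ST2-low. The upper rows are blue in all ST2KO samples, and Socs1, Pik3ip1, Zfp36l2 and Il7r stand at the bottom with the opposite sign.

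Txnip and several of these genes are also targets of FOXO factors, which SGK1 inactivates. All 14 listed FOXO targets of T cells were tested. In ST2KO against ST2-low 10 were lower and 4 higher (median log2 fold change -0.789), Txnip, Il7r and Pik3ip1 being among the 4. In ST2KO against ST2-high 9 were lower and 3 higher (median -0.549). In ST2-high against ST2-low 11 were lower and 1 higher (median -0.358), Txnip being among those lower and Il7r the one higher. In that order 100%, 85.7% and 85.7% of the list were called, where 62.3%, 64.5% and 26.1% of all tested genes were. Called lower were 29.3%, 32.6% and 10.8% of all tested genes. Bcl6, encoding a repressor of effector differentiation, stood at 30.1, 36.5 and 38.3 CPM in ST2KO, 134, 141 and 124.5 CPM in ST2-high, and 207, 219.9 and 211 CPM in ST2-low. Klf2, which controls exit from lymphoid organs, was 1.42-fold lower in ST2-high than in ST2-low. S1pr1, its target and the receptor for sphingosine-1-phosphate, was 2.42-fold lower in ST2KO than in ST2-low. Txnip thus stood with the minority of the list in ST2KO and with the majority in ST2-high.

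**Figure D5:**
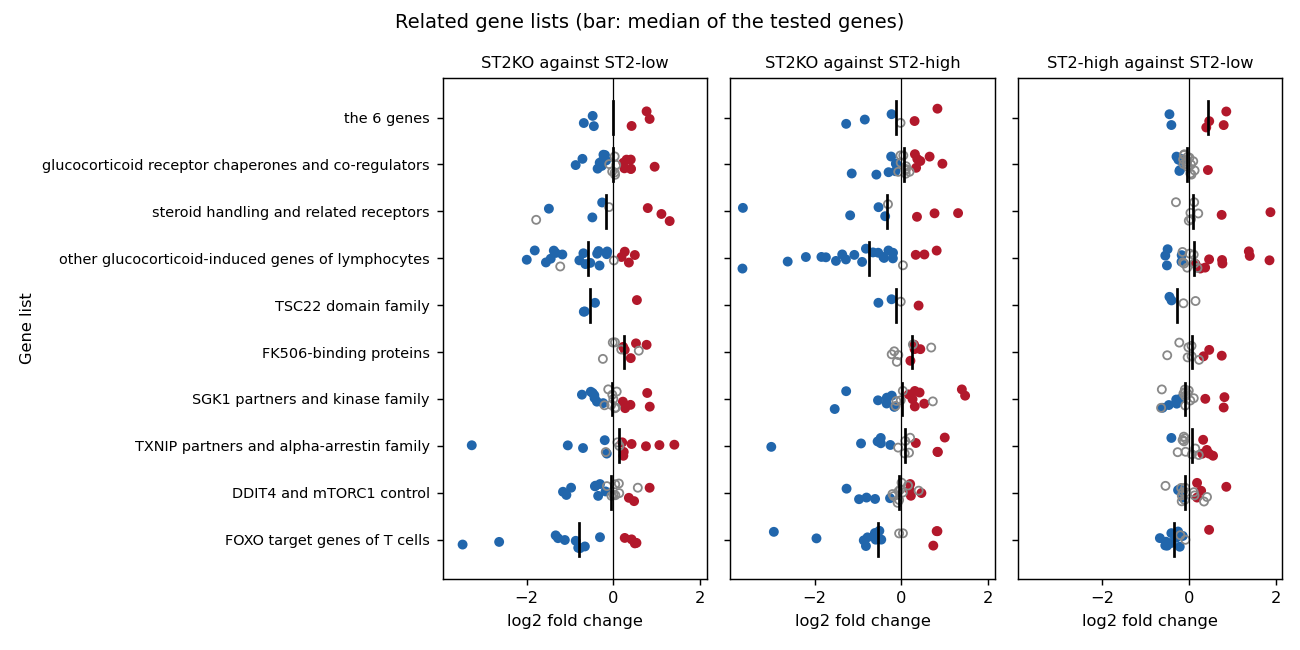
Log2 fold change (horizontal axis) of each tested gene of the 6 genes and of the related lists (rows) in the 3 comparisons. Filled points were called, red for higher and blue for lower in the group named before "against", open points were not, and black bars are list medians. The other glucocorticoid-induced genes and the FOXO targets lie mostly to the left in both ST2KO comparisons. The other lists have genes on both sides of 0. In ST2KO against ST2-low the TSC22 family median is -0.543 and that of the FK506-binding proteins is 0.243.

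The 6 genes fell into a pair of patterns over the 9 samples, described by Pearson correlations of log2 CPM that mostly reflect the 3 group means and the shared libraries. Nr3c1 and Sgk1 went together (r = 0.973), and Txnip ran against both (r = -0.968 and -0.971). Tsc22d3 ran against Fkbp5 (r = -0.926) and Ddit4 (r = -0.91), while Fkbp5 and Ddit4 went together (r = 0.844). Among 7509 other genes at a mean of 10 CPM or more, those most like Nr3c1 were Zbtb1 (r = 0.998), Hopx (r = 0.997) and Abcf1 (r = 0.992). Hopx, a homeodomain protein gene, was at 42.8 CPM in ST2KO, 141 CPM in ST2-high and 80.4 CPM in ST2-low on average. Most like Sgk1 were Egln3 (r = 0.9955), Id2 (r = 0.9945) and Tank (r = 0.994). Egln3 encodes a prolyl hydroxylase of the oxygen-sensing pathway and averaged 9.48 CPM in ST2KO, 41.1 CPM in ST2-high and 17.2 CPM in ST2-low. Most like Txnip were Id3 (r = 0.995), Treml2 (r = 0.992) and Kat2a (r = 0.992). Id3 and Id2 encode inhibitors of E proteins, and Id2 averaged 41.65 CPM in ST2KO, 138 CPM in ST2-high and 70.5 CPM in ST2-low. Id3 averaged 18.5 CPM in ST2KO, 8.655 CPM in ST2-high and 12.55 CPM in ST2-low. Most like Fkbp5 were Cdc42se2, Tmem8 and Nf2 (r between 0.973 and 0.981), most like Tsc22d3 were Otud1, Eif4g2 and Srsf5 (r between 0.979 and 0.987), and most like Ddit4 were Usp28, Lime1 and Rps6ka1 (r between 0.974 and 0.99).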

How the data were processed

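The authors deposited 1 table of raw counts per gene symbol for each of 9 samples; whole numbers with unequal totals show that the counts were not normalized. The sources used here do not give the aligner, the counting tool, the genome build or the library kit and its strandedness, so overlapping and near-identical genes may share reads. Of 23420 rows, 27 symbols had become dates in a spreadsheet (between 0.182% and 0.206% of counts) and were left out of library sizes and tests. The ribosomal RNA precursor row Rn45s, between 12.1% and 16.9% of counts, was kept. Library totals after that were between 11638480 and 43323449 counts.

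Groups were taken from the labels, 3 samples each. Genes passed filterByExpr (count minimum 10, total minimum 15), which left 12219. edgeR 4.0.16 (R 4.3.3) fitted 1 coefficient per group over all 9 samples with TMM factors and a robust quasi-likelihood test, and p-values were adjusted by Benjamini-Hochberg across the tested genes, with a threshold of 0.05. Alternatives were DESeq2 1.42.0, limma-voom (limma 3.58.1), other scalings and filters, thinning, a replicate block, leaving out Rn45s and leaving out each sample. The steps were tested on simulated data. Replicate numbers are not stated to mark pairs, and the fit had no block.

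The 6 genes and all lists were chosen with earlier results of these data known. Genes named are the 6, up to 4 genes per list and comparison with the smallest adjusted p among those called at 5 CPM or more, the counted TSC22 and steroid handling genes, Il1rl1 and Foxp3, and the 3 genes most correlated with each of the 6. Other genes named (Stip1, Fkbp4, Arrdc4, Hsp90aa1, Hsp90ab1, Socs1, Zfp36l2, Ctla4, Mlxip, Dusp1, Zfp36, Zbtb16, Klf9) were chosen after their values were seen. Promoter windows came from RefSeq (GRCm38.p6). The window of Nr3c1 was not used here, and a few listed genes are not reported here.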

Additional observations from a re-analysis of the deposited data

How the results depend on the processing

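The 18 log2 fold changes of the 6 genes were recomputed under 19 alternatives, and 338 of the 342 values kept the direction and the call. The other 4 belong to Ddit4 in ST2KO against ST2-high, which did not pass under any of the 19. Its log2 fold change was 0.061 with upper-quartile factors (adjusted p = 0.483), 0.00019 with limma-voom, 0.046 without ST2KO replicate 3 and 0.025 without ST2-high replicate 3, against -0.019 in the fit reported, and its range over the alternatives was -0.11 to 0.06; the cause was not tested. With ST2-high replicate 3 left out, the other 17 values kept their direction and call. With the replicate block the genes called numbered 7622 in ST2KO against ST2-low, 7885 in ST2KO against ST2-high and 3210 in ST2-high against ST2-low, and the block changed no call of the 6 genes. The deviations of same-numbered samples correlated between -0.0626 and 0.0984, so the numbers were not shown to pair the samples. A filter of 5 CPM turned the split in ST2-high against ST2-low to 1456 higher and 1666 lower, among fewer genes tested. Scaling also turned which direction had more calls, to 3729 higher and 3829 lower in ST2KO against ST2-low with DESeq2 size factors and to 4582 higher and 3443 lower in ST2KO against ST2-high with upper-quartile factors. Of 918 counts over the related lists, 890 stayed within 1.5 times, and 193 of the 232 calls of related genes held under every alternative run. Depth limits the genes near 1 CPM, Hsd11b2 and Cyp11a1 among them.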
